A study of Homo sapiens with 9 samples.

Results

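NRF2, the transcription factor encoded by NFE2L2, and 9 of its target genes (NQO1, PIR, TRIM16, GCLM, GCLC, TXNRD1, SRXN1, HMOX1 and SLC7A11) were followed across a breast cancer cell line and its 2 parental lines. These are 10 of the 19775 genes that have a probe set of their own on the array. The set was chosen on measured values, because NQO1, PIR and TRIM16 stood below both parental lines in B6TC cells, and the question was whether the other 7 members followed them. The 10 genes had 21 probe sets (groups of short oligonucleotides that read 1 transcript), of which 18 passed the filter on low values (a log2 value of 6 or more on at least 3 of 9 arrays), with at least 1 for each gene. The other 3, 1 each of NFE2L2, GCLC and TXNRD1, were not tested.

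B6TC is a GFP-expressing, estrogen-independent line, in the majority resistant to both puromycin and G418. It was established, under G418, from a tumor that B6 cells formed in a nude mouse without estrogen supplementation, and B6 came from GFP-expressing cells of the bone marrow of a mouse that carried an MDA-MB-231 tumor and had received ZR-75-1 cells. MDA-MB-231 was an ER negative GFP/Neo line, represented by 1 G418-resistant clone. ZR-75-1 was an ER positive GFP/puro line, used as a pool of puromycin-resistant cells, so all 3 lines carried GFP and a drug resistance gene. RNA of near confluent cultures was hybridized to Affymetrix U133 Plus 2.0 arrays, 3 per line and 9 in all. The labels call the arrays of a line technical replicates, so the p-values below measure only the spread between such arrays and not that between cultures.

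Array medians lay between 4.89 and 4.96 on the log2 scale, and arrays of a line differed by a median of 0.058 to 0.089. The mean of 6 luminal markers was 6.62 to 7.73 on the B6TC arrays, 6.52 to 6.62 on the MDA-MB-231 arrays and 11.27 to 11.35 on the ZR-75-1 arrays, and that of 4 mesenchymal markers was 11.71 to 11.76, 11.65 to 11.71 and 4.62 to 5.05 in the same lines. The third B6TC array stood apart: it had the 7.73, against 6.70 and 6.62 on the other 2, and it exceeded their mean at 256 (90.8%) of 282 probe sets at 8 or more in ZR-75-1 and under 6 in MDA-MB-231. The NQO1 and HMOX1 differences from MDA-MB-231, both PIR differences and 1 count of NRF2 target genes are given with and without it. Most other values include it. For ACTB, the 3′ minus 5′ difference between probe sets averaged 0.67 on the B6TC arrays, 0.32 on those of MDA-MB-231 and 0.73 on those of ZR-75-1. The part of these RNA differences in the results was not tested.

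NRF2 is held in the cytoplasm by KEAP1, which hands it to a CUL3 ubiquitin ligase for degradation. Oxidants and electrophiles modify KEAP1, and NRF2 then accumulates, pairs with a small MAF protein and binds antioxidant response elements near genes for quinone reduction, glutathione and thioredoxin systems, heme breakdown and drug export. Because NRF2 is regulated mainly through its protein, the mRNA level of NFE2L2 is not a measure of its activity.

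The short core of this element, TGACNNNGC, was searched for on both strands of RefSeq promoter windows (GRCh38.p14, 250 bases before to 50 after the transcription start). A match was present in 13.3% of all 35116 windows. Of the 10 members, 8 had 10 windows in this table, and 3 of them had 5 matches. A match to this core does not show that NRF2 binds there, which was not tested. These stretches of 30 bases are shown because they hold the matches found at members that behaved differently on the arrays. They are written 5′ to 3′ on the strand of the gene, with the match in capitals, and a match that reads on the opposite strand appears as its reverse complement.
PIR, chrX:15493288-15493317, minus strand: gccgcgaagcGCTGAGTCAcggtgaggcta
GCLM, chr1:93909445-93909474, minus strand: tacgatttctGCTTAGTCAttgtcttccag
TXNRD1, chr12:104215670-104215699, plus strand: acacgggctaTGACTTCGCtgttgtcaccg
TXNRD1, chr12:104215761-104215790, plus strand: gcgtccttcgGCTCCGTCAgttcccacagg
TXNRD1, chr12:104286920-104286949, plus strand: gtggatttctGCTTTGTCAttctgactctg
The first 2 TXNRD1 stretches belong to 1 of its starts and the last to another. The PIR match began at base 27 of the transcript and the GCLM match 34 bases before the start. The PIR match overlaps the AP-1 motif TGACTCA, which 4.95% of all windows hold on either strand. The windows of NQO1, TRIM16, NFE2L2, GCLC and SRXN1 held no match to these letters, which says nothing of more distant elements. PIR was among the members that chose the set, whereas the brightest probe sets of GCLM and TXNRD1, whose windows also held matches, differed in B6TC from the parental lines by only -0.19 to -0.03 on the log2 scale.

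NQO1, PIR and TRIM16 are described without a test, since their values chose the set. NQO1, a quinone reductase that uses NADH or NADPH and a common readout of NRF2, had log2 values of 9.95, 9.98 and 10.17 in B6TC on its brightest probe set, against 11.36, 11.41 and 11.35 in MDA-MB-231 cells and 12.59, 12.66 and 12.63 in ZR-75-1 cells. All B6TC arrays were below all parental arrays. The log2 differences were -1.34 (MDA-MB-231) and -2.60 (ZR-75-1), or 2.54-fold and 6.06-fold lower. Without the third B6TC array, which gave the highest value of the line, the difference from MDA-MB-231 was -1.41. The other 2 NQO1 probe sets ran the same way, at -0.60 and -1.63 for 1 and -1.69 and -3.07 for the other, again with no overlap of lines. In bulk RNA, fewer expressing cells and less RNA per cell cannot be told apart.

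PIR, the iron-binding nuclear protein pirin, had values of 4.98, 4.79 and 5.93 in B6TC, 6.66, 6.53 and 6.49 in MDA-MB-231 cells and 10.43, 10.46 and 10.48 in ZR-75-1 cells. The lines did not overlap, but all 3 B6TC values were under the filter level of 6, so the size of the differences is less certain than their direction. They were -1.33 (MDA-MB-231) and -5.22 (ZR-75-1), and -1.67 and -5.57 without the third B6TC array, which gave the highest PIR value of the line.

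TRIM16, a tripartite motif protein with a role in autophagy, had values of 6.25, 6.68 and 6.41 in B6TC, 8.31, 8.29 and 8.11 in MDA-MB-231 cells and 8.86, 9.03 and 8.85 in ZR-75-1 cells. Its log2 differences were -1.79 (3.46-fold lower than in MDA-MB-231 cells) and -2.47 (5.52-fold lower than in ZR-75-1 cells), with no overlap, and the third B6TC array lay between the other 2. TRIM16 and PIR each had 1 probe set. TRIM16L, a paralog, had 1 probe set with means of 6.43 in B6TC, 6.51 in MDA-MB-231 cells and 6.29 in ZR-75-1 cells, and a dimmer one that was called higher in B6TC than in both (by 0.38 and 2.01).

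Ordered by the larger of the 2 differences from the parental lines, which is negative only where B6TC is below both, TRIM16 (-1.79), NQO1 (-1.34) and PIR (-1.33) had places 2, 7 and 8 from the lowest of 10751 genes tested. The low places of TRIM16, NQO1 and PIR follow from the rule, which chose them on these same differences, and are not a test. The next member was HMOX1 (-0.53, place 258), followed by GCLC (-0.06), TXNRD1 (-0.04) and GCLM (-0.03). The remaining 3 had a positive value, SRXN1 of 0.10, NFE2L2 of 0.65 and SLC7A11 of 3.34. Over all genes, 0.27% were called lower than both parental lines by at least 2-fold each.

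**Figure D1:**
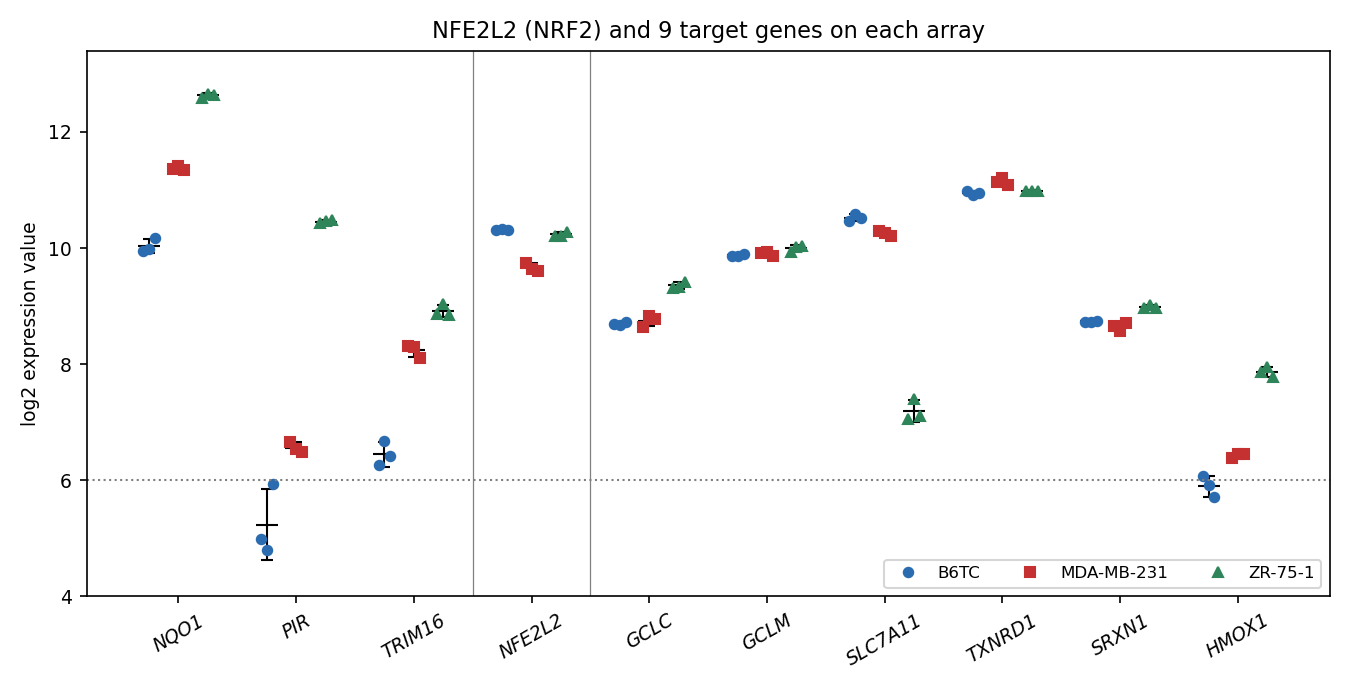
Log2 expression values (vertical axis) of the brightest probe set of each gene on each array, with B6TC (circles), MDA-MB-231 (squares) and ZR-75-1 (triangles) from left to right; bars give the mean ± SD of 3 arrays and the dotted line marks the filter level of 6. The B6TC points of NQO1, PIR, TRIM16 and HMOX1 lie under those of both parental lines, while those of SLC7A11 lie above both.

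The other 7 members did not follow as a group. Between B6TC and MDA-MB-231, 2 were lower (HMOX1 and TXNRD1), 2 were higher (NFE2L2 and SLC7A11) and 3 were not called, with a median difference of -0.03, while 28.5% of all genes tested were called lower and 36.5% higher, with a median of 0.04. Between B6TC and ZR-75-1, 4 were lower (HMOX1, GCLC, SRXN1 and GCLM), 1 was higher (SLC7A11) and 2 were not called, with a median of -0.12, while 41.6% of all genes were called lower and 42.8% higher. HMOX1 alone of the 7 (14.3%) was called lower than both parental lines, near the 14.6% of all genes. The 2 comparisons share the B6TC arrays. A call required a p of at most 0.05 in limma after Benjamini-Hochberg adjustment over 21095 probe sets, and log2 differences are given ± SE.

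NFE2L2 itself was not low in B6TC on its brightest probe set. The values there were 10.32, 10.32 and 10.30 in B6TC, 9.75, 9.64 and 9.61 in MDA-MB-231 cells and 10.21, 10.21 and 10.28 in ZR-75-1 cells. B6TC was above all MDA-MB-231 arrays (difference 0.65 ± 0.05, limma adjusted p = 2.13e-06) and differed from ZR-75-1 by 0.08 ± 0.05 (adjusted p = 0.145). A dim probe set of the gene went the other way, with means of 6.14 in B6TC, 6.48 in MDA-MB-231 cells and 6.10 in ZR-75-1 cells and a difference of -0.34 ± 0.06 from MDA-MB-231 (adjusted p = 0.000701), so the direction against MDA-MB-231 depends on the probe set. Another, below the filter, had means of 3.66 in B6TC, 3.82 in MDA-MB-231 cells and 3.74 in ZR-75-1 cells. A probe set that also carries the symbol CSNK2A1 was set aside, with means of 6.96, 7.12 and 6.25 in the same lines.

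The subunits of glutamate-cysteine ligase, which makes the first step of glutathione synthesis, were close to MDA-MB-231. GCLC, the catalytic subunit, had values of 8.68, 8.67 and 8.72 in B6TC, 8.65, 8.83 and 8.77 in MDA-MB-231 cells and 9.32, 9.33 and 9.42 in ZR-75-1 cells. Its B6TC arrays lay within the range of MDA-MB-231 (-0.06 ± 0.06, adjusted p = 0.39) and below those of ZR-75-1 (-0.66 ± 0.06, adjusted p = 1.11e-06). Its second tested probe set gave 0.13 (adjusted p = 0.0718) and -0.28 (adjusted p = 0.000932), the same calls.

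GCLM, the modifier subunit, had means of 9.88 ± 0.02 in B6TC, 9.91 ± 0.03 in MDA-MB-231 cells and 10.00 ± 0.05 in ZR-75-1 cells (SD, n = 3 arrays). It differed from MDA-MB-231 by -0.03 ± 0.04 (adjusted p = 0.625) and from ZR-75-1 by -0.12 ± 0.04 (adjusted p = 0.0279). The small difference from ZR-75-1 did not hold: it lost its call without B6TC array 1 (adjusted p = 0.0731) or 2 (0.072), or without ZR-75-1 array 2 (0.071) or 3 (0.0853), and another probe set was higher in B6TC by 0.34 (adjusted p = 0.00658). The remaining one exceeded MDA-MB-231 by 0.28 (adjusted p = 0.0452).

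SLC7A11, the light chain of the cystine/glutamate exchanger that brings in cystine for glutathione, had the opposite pattern to NQO1. It had values of 10.46, 10.58 and 10.53 in B6TC, 10.30, 10.26 and 10.21 in MDA-MB-231 cells and 7.05, 7.40 and 7.11 in ZR-75-1 cells. Its level in B6TC was 10.11-fold that in ZR-75-1 (3.34 ± 0.08, adjusted p = 9.56e-11) and 0.27 ± 0.08 above that in MDA-MB-231 (adjusted p = 0.0168). The call against MDA-MB-231 was lost without B6TC array 2 (0.24, adjusted p = 0.0576) or MDA-MB-231 array 3 (0.24, adjusted p = 0.0551). Of its other probe sets, 1 was also called higher against MDA-MB-231 (0.44, adjusted p = 0.00525) and 1 was not (0.01, adjusted p = 0.938), while against ZR-75-1 both were higher (2.23 and 3.37).

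The 2 enzymes of the thioredoxin system showed small differences. TXNRD1, thioredoxin reductase, had values of 10.98, 10.91 and 10.95 in B6TC, 11.13, 11.21 and 11.08 in MDA-MB-231 cells and 10.99, 10.99 and 10.98 in ZR-75-1 cells. It was lower than in MDA-MB-231 (-0.19 ± 0.05, adjusted p = 0.00392) and differed from ZR-75-1 by -0.04 ± 0.05 (adjusted p = 0.456). SRXN1, sulfiredoxin, which reduces overoxidized peroxiredoxins, had means of 8.73 ± 0.01 in B6TC, 8.64 ± 0.07 in MDA-MB-231 cells and 8.98 ± 0.04 in ZR-75-1 cells (SD, n = 3 arrays). It was lower than in ZR-75-1 (-0.25 ± 0.05, adjusted p = 6e-04) and differed from MDA-MB-231 by 0.10 ± 0.05 (adjusted p = 0.1).

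HMOX1, heme oxygenase 1, alone of the 7 was called lower than in both parental lines (14.3%, near the 14.6% of all genes). It had values of 6.06, 5.92 and 5.70 in B6TC, 6.38, 6.45 and 6.45 in MDA-MB-231 cells and 7.86, 7.95 and 7.78 in ZR-75-1 cells. B6TC lay below both parental lines without overlap, at -0.53 ± 0.08 against MDA-MB-231 (1.44-fold lower, adjusted p = 0.000335) and -1.97 ± 0.08 against ZR-75-1 (3.90-fold lower, adjusted p = 4.92e-09). The mean difference from MDA-MB-231 was -0.43 without the third B6TC array, which had the lowest value here, and the call held. HMOX1 had 1 probe set, and its B6TC mean of 5.90 was under the filter level of 6, so the size of its differences is less certain.

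**Figure D2:**
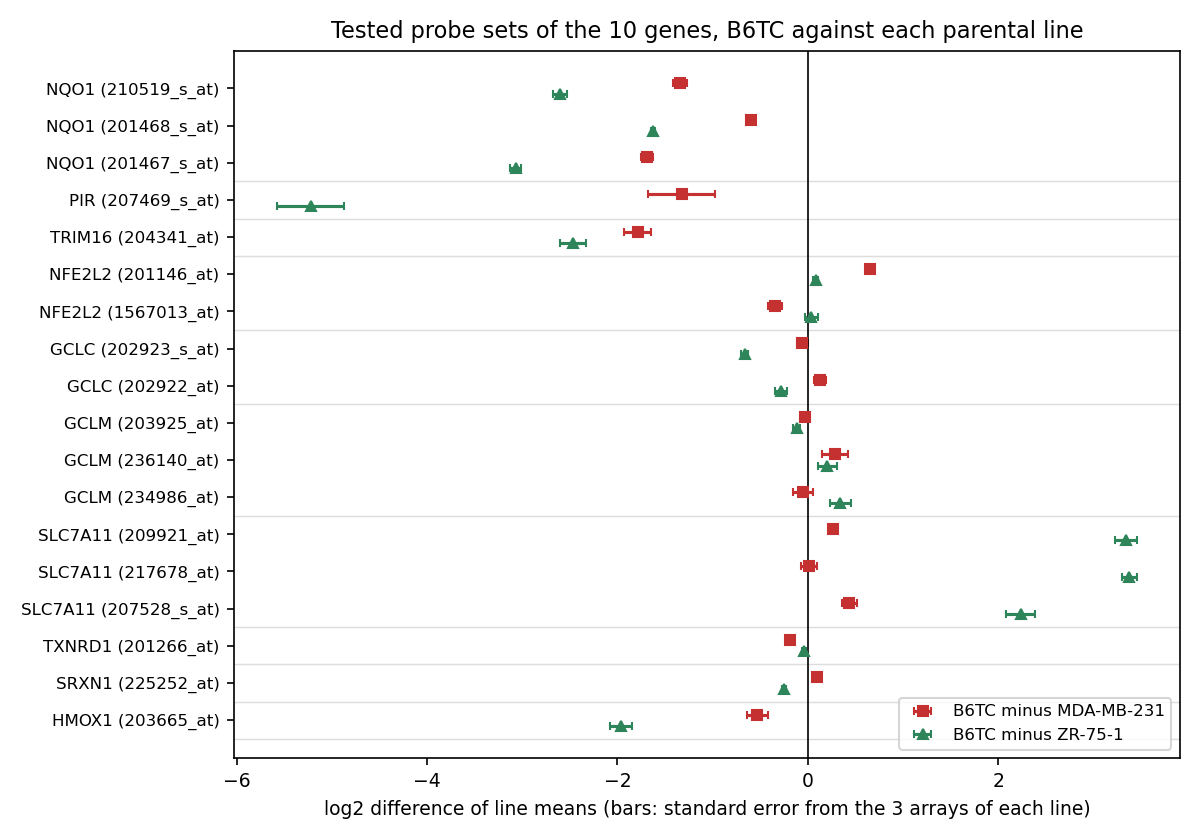
Log2 differences of B6TC from MDA-MB-231 (squares) and from ZR-75-1 (triangles) for the 18 tested probe sets, grouped by gene; bars are standard errors from the 3 arrays of each line, without moderation. Probe sets of NQO1, PIR, TRIM16 and HMOX1 lie left of 0 in both comparisons, and those of SLC7A11 lie right of 0. Against MDA-MB-231, NFE2L2, GCLC and GCLM have probe sets on both sides.

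Between the parental lines, NQO1 (-1.26), PIR (-3.90), TRIM16 (-0.68) and HMOX1 (-1.44, adjusted p = 5.79e-08) were lower in MDA-MB-231 than in ZR-75-1. Of the 7 members that did not choose the set, 4 were called lower in MDA-MB-231 and 2 higher (SLC7A11 by 3.07 and TXNRD1 by 0.16), while 41.9% of all genes were called lower and 42.5% higher. In B6TC the 4 genes were thus beyond the lower parental line, whereas GCLC and SRXN1 did not pass the test against it.

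**Figure D3:**
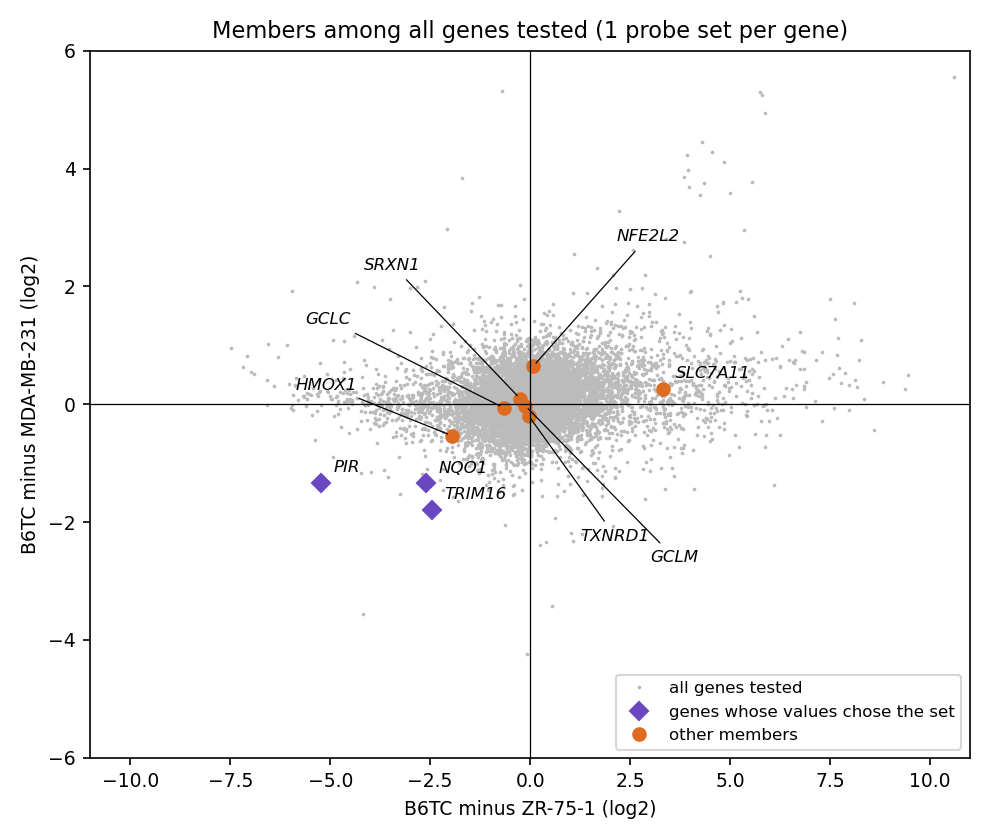
Difference of B6TC from ZR-75-1 (horizontal axis) and from MDA-MB-231 (vertical axis), both log2, for all 10751 genes tested (gray points, 1 probe set per gene), the 3 genes that chose the set (diamonds) and the other 7 members (circles). Only HMOX1 of the 7 lies clearly in the lower left quadrant, toward NQO1, PIR and TRIM16.

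The regulators of NRF2 differed in several places. KEAP1, the NRF2 inhibitor, had means of 9.34 in B6TC, 9.52 in MDA-MB-231 cells and 8.97 in ZR-75-1 cells, a difference of -0.18 from MDA-MB-231 (adjusted p = 0.00999) and of 0.37 from ZR-75-1 (adjusted p = 5.1e-05). BACH1, a repressor that competes with NRF2 at antioxidant response elements and holds HMOX1 down, was higher in B6TC than in both: 7.89, 7.83 and 7.87 in B6TC, with means of 6.92 in MDA-MB-231 cells and 6.07 in ZR-75-1 cells (0.94 ± 0.05, adjusted p = 4.45e-07, and 1.79 ± 0.05, adjusted p = 3.38e-10). The small MAF protein MAFF had the widest range of the 12 regulators tested, with means of 10.78 in B6TC, 9.66 in MDA-MB-231 cells and 3.07 in ZR-75-1 cells, which is under the filter level (1.13 ± 0.05, adjusted p = 7.66e-08, and 7.71 ± 0.05, adjusted p = 3.95e-14). Its second probe set gave 0.34 and 2.79, both called higher.

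MAFG, another small MAF protein, was higher by 0.26 and 1.41, but its dimmer probe set was lower than in MDA-MB-231 (-0.50). CUL3 was higher than in both parental lines (0.41 and 0.87). SQSTM1, which can sequester KEAP1, was lower than in MDA-MB-231 (-0.65) and higher than in ZR-75-1 (0.68), and a dim probe set of it was lower than in both (-0.24 and -0.37). Of the relatives of NRF2, NFE2L1 was lower than in MDA-MB-231 on its brightest probe set (-0.46) and higher on another (0.16), and NFE2L3 was higher than in ZR-75-1 (3.80). Of FBXW11 and BTRC, the F-box proteins of a second NRF2 ligase, FBXW11 was lower than in MDA-MB-231 (-0.30). Against ZR-75-1 both were higher on their brightest probe sets (0.85 and 0.60). Other probe sets of BTRC were not called against ZR-75-1 (0.09 and -0.14), and the second of these was lower than in MDA-MB-231 (-0.26). RBX1 differed from ZR-75-1 by -0.21, and the coactivator CREBBP differed by 0.30 from MDA-MB-231 and by -0.91 from ZR-75-1. A dimmer probe set of CREBBP gave -0.12, not called, and -0.17, called lower. In all, 4 of 12 regulators tested were lower and 5 higher than in MDA-MB-231, and 2 lower and 9 higher than in ZR-75-1. The shares against MDA-MB-231 (33.3% and 41.7%) were near those of all genes (28.5% and 36.5%), and those against ZR-75-1 were 16.7% and 75%, beside 41.6% and 42.8%.

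Over a wider list of 49 NRF2 target genes, 39 were tested, 6 were below the filter and 4 were not analysed here. Against MDA-MB-231, 16 (41.0%) were lower in B6TC and 12 (30.8%) higher (median -0.09), beside 28.5% and 36.5% of all genes. Against ZR-75-1, 25 (64.1%) were lower and 13 (33.3%) higher (median -0.46), beside 41.6% and 42.8%. Between the parental lines, 22 (56.4%) were lower in MDA-MB-231 and 17 (43.6%) higher, beside 41.9% and 42.5%. In B6TC, 13 of the 39 (33.3%) were lower than in both parental lines, beside 14.6% of all genes, and 5 (12.8%) were higher than in both, beside 20.1%. At 2-fold or more, 1 (2.56%) was lower than in MDA-MB-231 and 1 (2.56%) higher, beside 1.04% and 2.71% of all genes, and 9 (23.1%) were lower than in ZR-75-1 and 8 (20.5%) higher, beside 14% and 17.6%. Between the parental lines 12 (30.8%) were lower in MDA-MB-231 and 9 (23.1%) higher by as much, beside 15.6% and 16.3%. None was lower by 2-fold or more than both, beside 0.27%. Without the third B6TC array 11 were lower than both, but the share of all genes without it is not given. This count can therefore not be set beside the 14.6%. Without probe sets that may bind several transcripts, 31 of the 39 could be tested, of which 10 (32.3%) were lower than in MDA-MB-231, beside 26.5% of all genes, and 8 (25.8%) lower than both, beside 13.1%. Of the 13 lower than both, 10 were still tested and 8 of these were again lower than both. All these counts take the brightest probe set of each gene.

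The 13, named after their values were seen, spanned several functions: SLC3A2, GPX4, MGST1, PRDX1, PRDX6, PGD, TKT, EPHX1, FECH, ABCB6, ABCC3, ABCG2 and RIT1. The clearest were PGD, 6-phosphogluconate dehydrogenase of the pentose phosphate pathway (-0.79 and -0.96 from MDA-MB-231 and ZR-75-1, adjusted p = 8.7e-07 and 2.7e-08), PRDX6, a peroxiredoxin (-0.53 and -0.92), and EPHX1, microsomal epoxide hydrolase (-0.72 and -0.46). PRDX1 differed by -0.41 and -0.55, and SLC3A2, the heavy chain that partners SLC7A11, by -0.69 and -0.34, so on their brightest probe sets the 2 chains of the exchanger were called in opposite directions. The 5 higher than both were GLRX, TXN, AKR1C1, CBR1 and ABCC4. Of these, GLRX (0.08), TXN (-0.04), AKR1C1 (0.02) and ABCC4 (-0.12 and -0.18) had other probe sets that were not called against MDA-MB-231, and MGST1, among the 13, had another that was higher (0.13). Also among the 13, ABCB6 and ABCC3 had B6TC means of 6.02 and 6.17, near the filter level.

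By function, the brightest probe sets of all 5 tested genes of NADPH supply were called lower against ZR-75-1 (-0.96 to -0.37, beside 41.6% of all genes), although a second probe set of the malic enzyme ME1 was higher (0.22, adjusted p = 0.00517), while against MDA-MB-231 2 were lower (PGD and TKT), 2 higher (ME1 by 1.67 and IDH1 by 0.13) and 1 not called. Of 6 genes of heme and iron handling, 5 (83.3%) were lower than in ZR-75-1 (-2.88 to -0.99), beside the same 41.6%, and ferritin light chain FTL was higher (1.40), whereas against MDA-MB-231 the brightest probe sets differed by -0.25 to 0.24. FECH, ferrochelatase, was lower than in both (-0.25 and -1.74, and -0.70 and -1.32 on a second probe set), as was the porphyrin transporter ABCB6 (-0.21 and -2.32), whereas the direction of the heme transporter SLC48A1 against MDA-MB-231 depends on the probe set (0.24 on the brightest, -0.46 on a dimmer one, both called).

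Of 9 genes of glutathione synthesis and use, 4 (44.4%) were lower and 2 (22.2%) higher than in MDA-MB-231, beside 28.5% and 36.5% of all genes. The 2 were GSR, glutathione reductase (0.78, and -1.65 from ZR-75-1), whose second probe set gave 6e-04 and was not called, and GLRX, glutaredoxin (0.56 and 4.42). TXN, thioredoxin, was higher than in both (0.19 and 0.50). Of 8 detoxifying enzymes, 2 (25%, near the 28.5% of all genes) were lower than in MDA-MB-231, among them AKR1C3 (-1.37, but 6.10 above ZR-75-1), and 4 (50%, beside 36.5%) were higher, among them PTGR1 (0.71). Probe sets of the AKR1C family can share sequence, so AKR1C1 and AKR1C2 are uncertain. Of 5 conjugate exporters, 3 (60%, beside 28.5%) were lower than in MDA-MB-231 (ABCC3 at -0.45, ABCC1 at -0.43 and ABCG2 at -0.42) and ABCC4 was higher by 0.44 on its brightest probe set. RIT1 was lower (-0.23), and OSGIN1 differed by -0.15 (adjusted p = 0.213). Among 22 listed targets that had more than 1 tested probe set, the calls of a gene contradicted each other for 4 against MDA-MB-231 and for 3 against ZR-75-1.

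**Figure D4:**
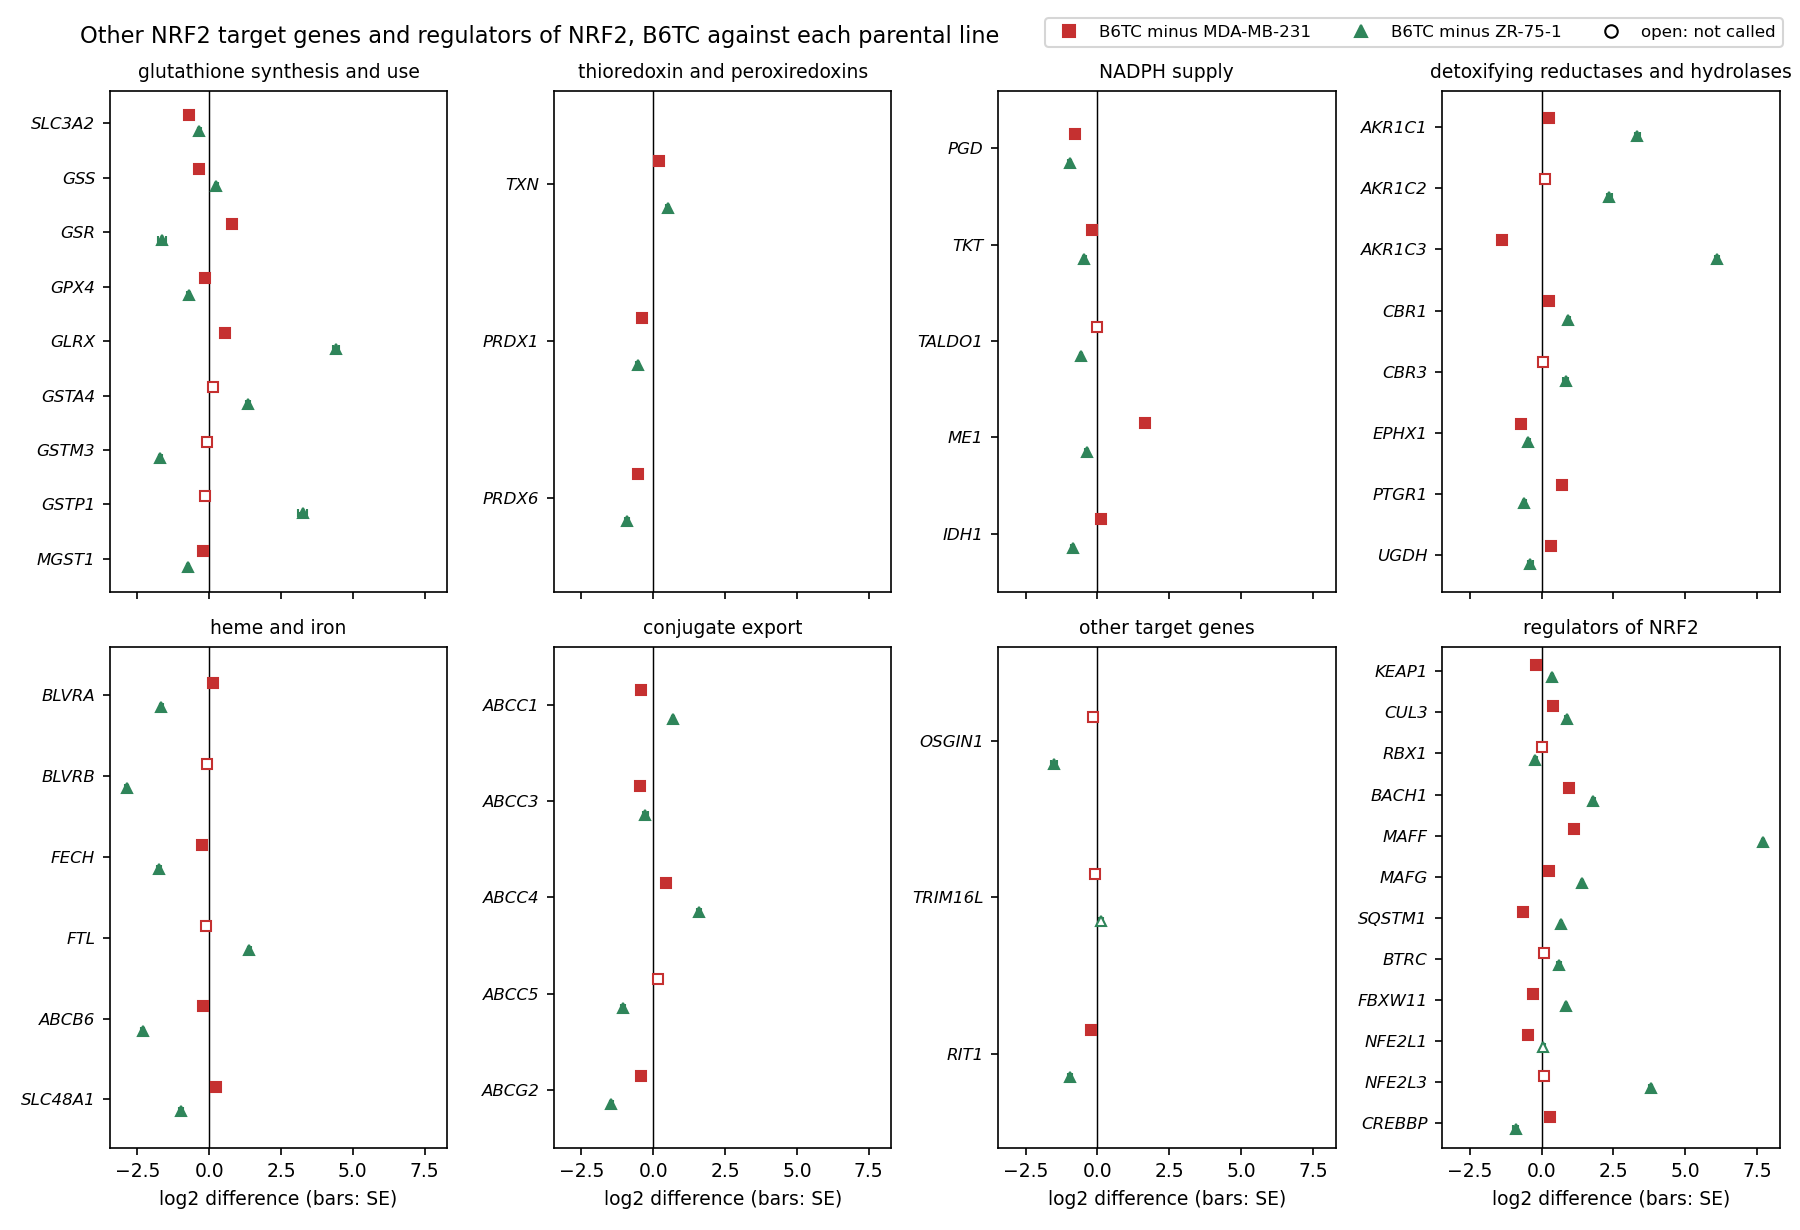
Log2 difference (horizontal axis, bars are limma standard errors) of B6TC from MDA-MB-231 (squares) and from ZR-75-1 (triangles) for the 39 tested genes of the wider list by function, and for 12 regulators of NRF2; open symbols did not pass the test. Each function holds genes on both sides of 0 in at least 1 comparison, with MAFF farthest right at 7.71 above ZR-75-1.

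SLC7A11 and several amino acid genes are also targets of ATF4, the transcription factor of the integrated stress response. Of 7 genes of that list tested, 3 (42.9%, beside 28.5% of all genes) were lower than in MDA-MB-231 (TRIB3 at -0.41, DDIT3 at -0.30 and ASNS at -0.23), SESN2 was higher by 0.33, and ATF4 differed by -0.07 (adjusted p = 0.158). PSAT1, an enzyme of serine synthesis, differed by -0.05 (adjusted p = 0.545) on its brightest probe set but by -1.11 (adjusted p = 2.67e-07) on another. Against ZR-75-1, 5 of the 7 (71.4%, beside 41.6%) were lower, and TRIB3 (-1.92) and ASNS (-1.43) were thus lower than in both. NQO1 is in addition a target of the aryl hydrocarbon receptor. Of 6 genes of that pathway, 4 (66.7%, beside 28.5%) were called lower against MDA-MB-231. Against ZR-75-1, 3 (50%) were lower and 3 (50%) higher, beside 41.6% and 42.8% of all genes. In B6TC, 2 of the 6 were lower than in both parental lines, beside 14.6% of all genes. These were CYP1B1, a monooxygenase (-1.23 and -3.57, with -0.89 to -0.47 from MDA-MB-231 on its other 3 probe sets, all called), and AHRR, the receptor's repressor (-0.85 and -0.81, with a B6TC mean of 5.39, under the filter level). AHR, the receptor gene, was not called against MDA-MB-231 (-0.18) and was higher than in ZR-75-1 (2.51). CYP1A1 (-0.29) and TIPARP (-0.29) were lower than in MDA-MB-231 but above ZR-75-1 (1.42 and 2.29).

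Profiles were compared as the root mean square distance over 9 arrays after each gene was centered on its own mean. Nearest to NQO1 were BAIAP2L1 (0.15), HES1, a Notch-responsive repressor (0.16), and HSPB8, a small heat shock protein (0.17). Nearest to TRIM16 were TLCD4 (0.19), PMEPA1 (0.25) and HSPB8 (0.26), and nearest to PIR were AFF3 (0.26), EEF1A2 (0.39) and SH3YL1 (0.42). Except for EEF1A2 (6.39), the B6TC means of these genes were 3.70 to 5.49, under the filter level of 6. The B6TC mean of NQO1 was 10.03, so the likeness of its nearest profiles is less certain. Among the members, NQO1 and TRIM16 were 0.28 apart and NQO1 and HMOX1 0.38, whereas NQO1 and GCLM were 1.01 apart and GCLM and TXNRD1 0.11. NQO1 and TRIM16 were both chosen as low in B6TC, so their closeness follows in part from that choice. The labels call the arrays of a line technical replicates, so these distances describe 3 lines.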

How the data were processed

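The authors deposited log2 expression values for 54675 probe sets on 9 arrays. The submitters' processing notes name Affymetrix Expression Console and RMA, whereas the methods name GC-RMA, which cannot be settled from the values. RNA kits also differ between the sources (RiboPure in the methods, Trizol and RNeasy in the labels). Control probe sets (62) were left out. Single-symbol probe sets (41091) were named from the platform annotation, updated by gene identifier against RefSeq (GRCh38.p14). After the filter, 21095 probe sets were fitted in R 4.3.3 by limma 3.58.1, estimating 1 mean for each line over all arrays, and p-values (2-sided) were adjusted by Benjamini-Hochberg within each comparison. A gene was represented by its tested probe set with the highest mean, and background shares are over such genes. The fit was tested on simulated data. The members and lists were chosen with earlier results of these data known. Genes were named where they were members or regulators, differed by at least 2-fold in 1 direction from both parental lines, were among the 3 of a list with the largest difference from MDA-MB-231, or were the 3 nearest profiles of NQO1, PIR and TRIM16. Others are examples named after their values were seen.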

Additional observations from a re-analysis of the deposited data

How the results depend on the processing

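The precision rests on 3 technical arrays per line, and low values such as PIR and HMOX1 in B6TC are compressed toward background. GCLM against ZR-75-1 turned to 0.14 (adjusted p = 0.0873) when the probe sets of a gene were averaged, and it also lost its call without the filter (adjusted p = 0.109) and with arrays centered on their medians (0.0986); the cause was not tested. The filter on level and variation, which removes GCLM, TXNRD1 and SRXN1, left 1 of the other members lower than MDA-MB-231, 2 lower than ZR-75-1 and, between the parental lines, 1 higher. Robust regression called 2 of them higher than ZR-75-1, NFE2L2 being added. With a fold minimum of 2, none of the other members was called between B6TC and MDA-MB-231 (0 lower, 0 higher). Against ZR-75-1, 1 was called lower and 1 higher, as between the parental lines, and 0 were lower than both. The wider list then gave 1 lower and 1 higher against MDA-MB-231, 9 and 8 against ZR-75-1, 12 and 9 between the parental lines and 0 lower than both, beside 1.04% and 2.71%, 14% and 17.6%, 15.6% and 16.3%, and 0.27% of all genes. Without probe sets that may bind several transcripts, which removes NQO1 and PIR, 31 of the wider list were tested, 10 lower than in MDA-MB-231 and 8 lower than both; for these 31 genes the brightest probe sets gave 13 and 10. Leaving out single arrays gave 1 to 2 other members higher than in MDA-MB-231. Of the single tested differences, 405 kept their direction and call under the alternatives, 20 lost the call, 6 gained one and 1 reversed. The array numbers did not pair the samples (correlations of same-numbered arrays of -0.10 to 0.18, 1 of 9 pairs over 0.1). A replicate block left the counts against MDA-MB-231 at 2 lower and 2 higher and changed no call of a member. For the filter on level and variation, robust regression, left-out arrays and the replicate block, shares of all genes are not given beside these counts. They show only whether calls of members changed with the processing.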
